A study of Mus musculus with 32 samples.

Results

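Of the 5723 chromatin-associated transcripts that the authors listed as different between wild-type (WT) and histone H1 triple-knockout (H1-TKO, here TKO) mouse embryonic stem cells, 45 carried the name of an odorant or vomeronasal receptor gene. They were chosen by name alone: a transcript belonged here if the gene name in the authors' table began with Olfr (odorant receptors), Vmn1r or Vmn2r (the vomeronasal receptor families) or Taar (trace amine-associated receptors), whatever its class. The rule itself used no measured value, though it was set with earlier results of these data known. The 45 transcripts carried 29 gene names, all of them found in the GENCODE M21 annotation of the mouse build mm10, and lay on 14 chromosomes. By name, 27 were Olfr, 12 Vmn1r, 6 Vmn2r and 0 Taar. By the authors' class, 37 were intergenic, 5 were gene transcripts, 3 lay on the 5′ side of a gene, and 0 were antisense or bidirectional.

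The cells of both groups were untreated embryonic stem cells grown in serum with LIF. They differed by genotype: WT cells against cells in which the linker histone genes Hist1h1c, Hist1h1d and Hist1h1e are deleted, as is known of such lines; the labels themselves name a triple H1 knockout without the genes. The sources used here give neither the strain nor whether each line is a single clone. Chromatin-enriched RNA (cheRNA), the RNA that sediments with insoluble chromatin when nuclei are lysed in urea and detergent, came from 3 samples per genotype. MapR came from 2 libraries per genotype made with RNase H fused to micrococcal nuclease (RNH), which releases DNA near RNA-DNA hybrids, and 1 control library per genotype made with the nuclease alone (MNase only). The cheRNA table gives 1 log2 fold change per listed transcript, with no value per sample, no p-value and no transcript below an absolute value of 1.00, so nothing in it could be tested, and the 3 cheRNA samples behind each value cannot be shown. The file does not name the numerator of its fold change. The sign was set so that the deleted genes are lower in TKO (Hist1h1d at -5.02, Hist1h1e at -4.83 and Hist1h1c at -3.61), and every direction below rests on that inference.

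Odorant receptors are G protein-coupled receptors of the olfactory epithelium, and each sensory neuron expresses a single allele of a single receptor gene. Vomeronasal receptors of the V1R and V2R families detect pheromones and other social odours in the vomeronasal organ. The genes lie in large clusters, are AT-rich and rich in interspersed repeats, and are packed in heterochromatin in cells that do not use them. Their textbook site of expression is the nose, not embryonic stem cells.

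In the authors' deposited table, receptor-named transcripts were mostly higher in TKO, 36 of the 45, and 9 were lower. The share higher was 80.0% (exact 95% binomial interval 65.4% to 90.4%, which covers counting only and takes transcripts as independent, although neighbours are not), beside 60.1% of all 5723 listed transcripts. Their median log2 TKO over WT was 2.62, beside 1.38 for all listed transcripts, and the values ran from -3.31 to 6.99. The highest ranked 34th of all listed transcripts and the lowest ranked 187th from the bottom. Of the 45, 32 (71.1%) had an absolute log2 value of at least 2, against 50.8% of the whole table, and 28 of these 32 were higher in TKO. At a log2 value of 5 or more stood 6 receptor-named transcripts (13.3%), against 4.88% of the table. Of these 6, 5 were neighbours within 103 kb of chromosome 13. The closest to the table's lower limit was the Vmn2r31-named transcript, at 1.18.

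The share was read against the class of the transcript, since intergenic transcripts of any name lean upward. Of the 37 intergenic receptor-named transcripts 28 (75.7%) were higher in TKO, beside 74.0% of all listed intergenic transcripts, so that their direction was that of the class. Their median was 2.56, beside 2.09 for the class. In the other classes all members were higher, but they were few. Of gene transcripts 5 of 5 were higher (exact binomial interval 47.8% to 100%), beside 45.0% of all listed gene transcripts. On the 5′ side of a gene it was 3 of 3 (29.2% to 100%), beside 66.4%. Both intervals cover counting only and take transcripts as independent, so they cannot show whether receptor-named transcripts differ from their class. These 8 transcripts came from 5 genes, and 6 of them were pieces with a shared assembly identifier, so these classes are not independent. By family, 19 of 27 Olfr transcripts (70.4%), 11 of 12 Vmn1r transcripts (91.7%) and 6 of 6 Vmn2r transcripts were higher, with median log2 values of 2.61, 3.17 and 1.73. Another large clustered family, transcripts named for zinc finger genes, had 58 of 81 (71.6%) higher with a median of 1.39, and transcripts of predicted or uncharacterised names had 111 of 174 (63.8%) with a median of 1.49.

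**Figure D1:**
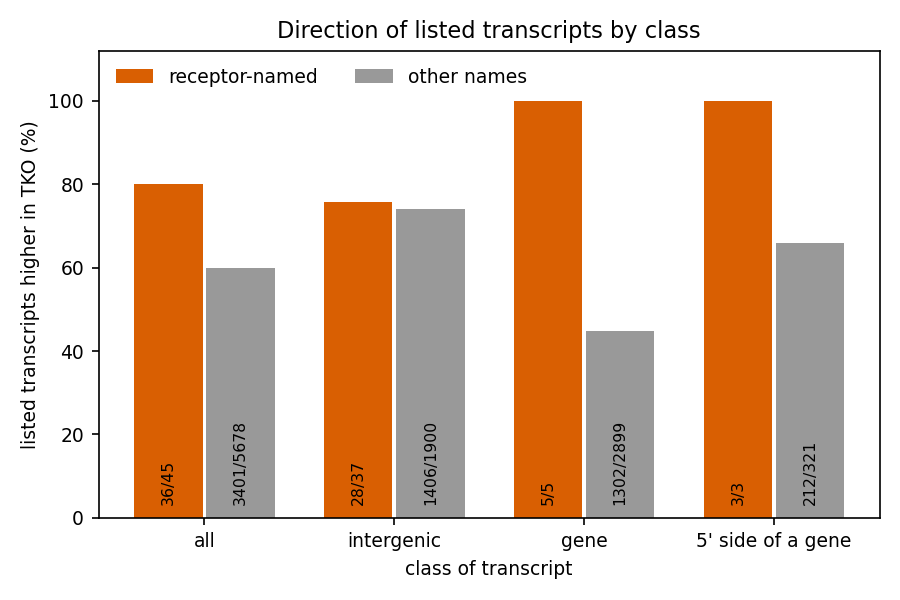
Percentage of listed transcripts that were higher in TKO in the authors' deposited table, by class, for receptor-named transcripts (orange) and all other names (grey); the numbers in the bars are transcripts higher over transcripts listed. The orange and grey bars are close for intergenic transcripts (75.7% against 74.0%) and apart for gene transcripts (5 of 5 against 44.9%).

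Transcripts at most 150 kb apart were joined into 25 loci. Of these, 18 held only higher transcripts, 6 only lower ones and 1, around Olfr164, held both. A single transcript made up 18 loci, and the other 7 held 27 transcripts. Counted once per locus, by its transcript with the largest absolute value, 76.0% of loci were higher.

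**Figure D2:**
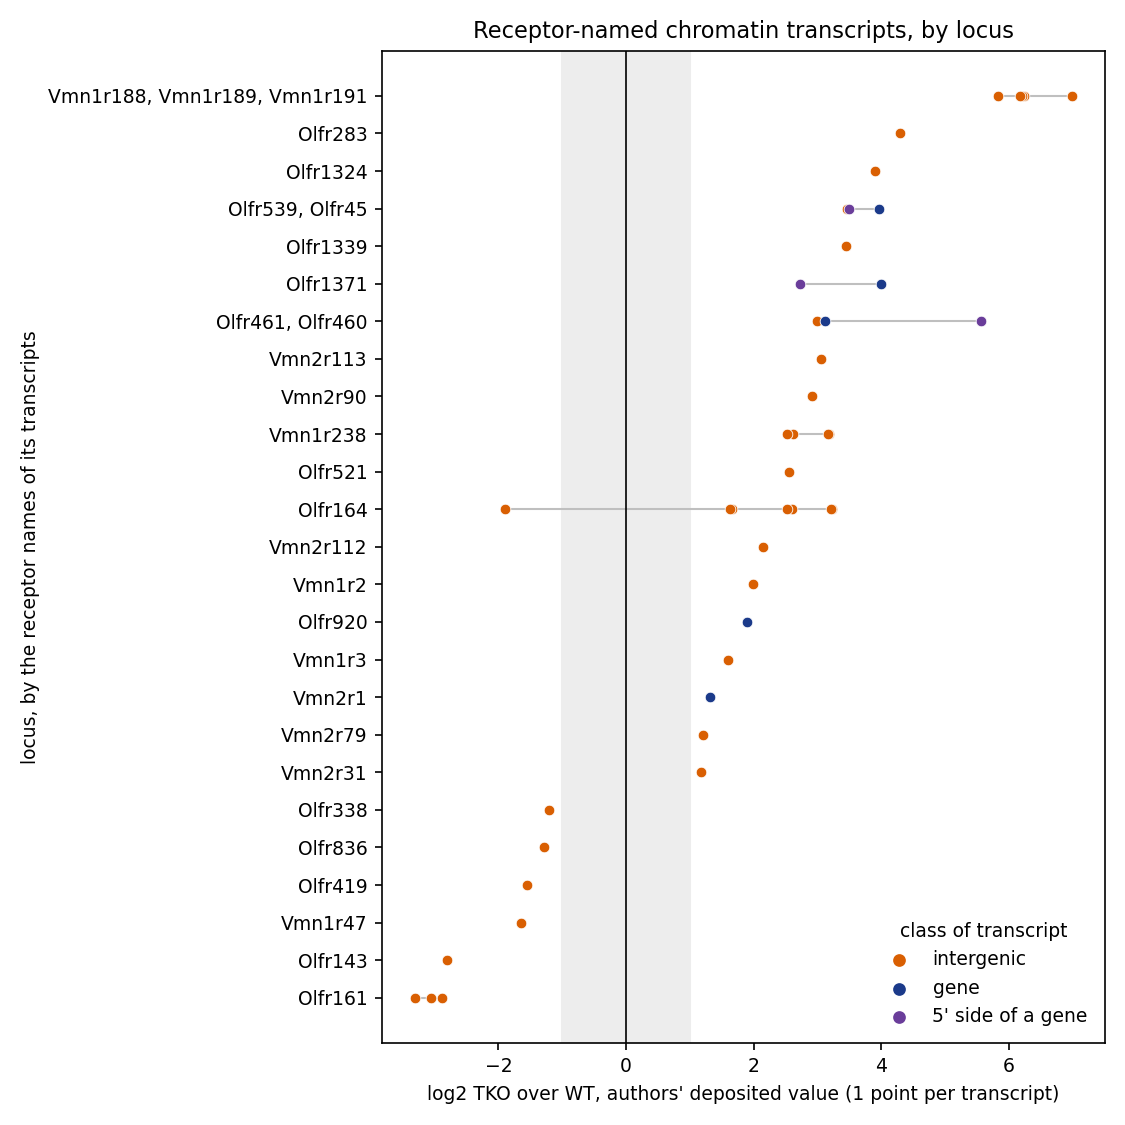
Log2 TKO over WT of each of the 45 receptor-named transcripts (1 point each, authors' deposited values) by locus, coloured by class; the grey band marks absolute values below 1, which the table does not list. The Vmn1r188 to Vmn1r191 locus stands alone between 5.83 and 6.99, and the lower values belong to 7 loci.

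Transcripts of the authors' gene class were listed for 5 receptor genes, 4 of them odorant receptors, and all 5 were higher in TKO. In the authors' deposited table the Olfr1371 transcript (chr11:52209845-52213987, minus strand) had a log2 value of 4.00, and it also ran along the long non-coding RNA gene Gm26551 on the same strand. The Olfr45 transcript (chr7:140690907-140692041, plus strand) had 3.97, the Olfr460 transcript (chr6:40571388-40574231, plus strand) 3.12 and the Olfr920 transcript (chr9:38752796-38758724, plus strand) 1.89. The Vmn2r1 transcript (chr3:64081642-64113357, plus strand) had 1.32 and ran from the RefSeq start past the annotated end of the gene. Vmn2r1 belongs to the vomeronasal V2R family of pheromone receptors.

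For 3 of these 5 genes the listed RNA did not begin at the gene. The 5′-side transcripts of Olfr460, Olfr45 and Olfr1371 carry the same assembly identifier as the gene transcript, end just before it and were higher in TKO too. Their log2 values in the authors' deposited table were 5.57 for Olfr460 (chr6:40569265-40571386), 3.50 for Olfr45 (chr7:140673611-140690905) and 2.73 for Olfr1371 (chr11:52213989-52224268). The 5′ piece therefore had the larger value at Olfr460 and the smaller one at Olfr45 and Olfr1371. The boundary between the pieces lay at the RefSeq start of the gene for Olfr460 and Olfr1371 (0 bp) and 23 bp from it for Olfr45, so each pair is 1 assembled RNA divided at an annotated start. That RNA began 2123 bp upstream of the RefSeq start of Olfr460, 10281 bp upstream of Olfr1371 and 17273 bp upstream of Olfr45. At Olfr45 it also covered the end of the neighbouring receptor gene Olfr539. The 5′ piece of Olfr1371 overlapped Gm26551 on its strand and did not overlap Olfr1371. GENCODE M21 holds longer models of some of these genes: it starts Olfr460 at position 40569487, close to the 5′ end of the listed RNA at 40569265, and Olfr45 at 140681951, still downstream of the 5′ end of the RNA. The listed RNAs of Olfr920 and Vmn2r1 began at the RefSeq start itself (0 bp).

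The sequences around the RefSeq starts are given here. Promoter below means only the window from 250 bases before to 50 after the RefSeq start (GRCm38, the assembly of mm10). It need not be where RNA begins. In Olfr460 and Olfr1371 the RefSeq start reads atg, the sequence of a start codon, and the listed RNA began upstream of the window. Capitals mark TAATTA, the core site of homeodomain proteins such as Lhx2, a regulator of odorant receptor choice, or CCCNNGGG, a core site of Ebf proteins, partners of Lhx2 at receptor promoters. Both were searched on both strands, and each reads the same on both. The first 2 sequences below are such windows of genes with a listed gene transcript, Olfr460 (chr6:40571138-40571437, plus strand) and Olfr1371 (chr11:52213938-52214237, minus strand). The third is the window of the same length around the 5′ end of the RNA that runs into Olfr45 (chr7:140673361-140673660, plus strand), read from the genome; there the capitals mark TATAAA and its reverse complement TTTATA, the core of a TATA box, which overlap.
Olfr460 promoter: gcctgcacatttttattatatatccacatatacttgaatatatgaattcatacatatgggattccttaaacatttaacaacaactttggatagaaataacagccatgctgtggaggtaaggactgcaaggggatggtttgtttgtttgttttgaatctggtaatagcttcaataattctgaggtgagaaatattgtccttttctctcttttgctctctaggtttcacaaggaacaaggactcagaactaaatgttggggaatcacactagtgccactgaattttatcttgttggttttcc
Olfr1371 promoter: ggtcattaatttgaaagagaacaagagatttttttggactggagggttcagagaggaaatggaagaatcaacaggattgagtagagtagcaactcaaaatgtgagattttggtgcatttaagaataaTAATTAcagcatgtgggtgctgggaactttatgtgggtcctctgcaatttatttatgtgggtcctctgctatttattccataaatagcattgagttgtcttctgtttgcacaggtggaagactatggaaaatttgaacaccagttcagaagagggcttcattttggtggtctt
Olfr45 upstream RNA start: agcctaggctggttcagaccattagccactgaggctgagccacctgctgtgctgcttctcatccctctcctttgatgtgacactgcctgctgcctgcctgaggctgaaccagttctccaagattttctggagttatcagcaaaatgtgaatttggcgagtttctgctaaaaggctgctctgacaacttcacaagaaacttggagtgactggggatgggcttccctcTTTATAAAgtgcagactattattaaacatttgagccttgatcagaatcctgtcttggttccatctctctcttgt
The Olfr1371 promoter held 1 TAATTA, and the Olfr460 promoter held neither TAATTA nor CCCNNGGG. Of 1283 receptor promoters in the RefSeq table, 212 (16.5%) held TAATTA, against 5.29% of all 32851 promoters, and 53 (4.13%) held CCCNNGGG, against 13.7%. The median GC content was 35.7% and 52.7%. How many of the 1283 windows lie at a start codon was not counted, so these shares may not compare promoters with promoters. Of the 29 names, 25 had a promoter in that table, and 2 of the 25 held TAATTA and 1 CCCNNGGG.

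The 5′ ends of the listed transcripts were compared in the same way, in windows of 250 bases before to 50 after the first base. For the gene pieces of Olfr460, Olfr45 and Olfr1371 this is where an assembled RNA was divided, not where it began. Of the 45 windows, 6 (13.3%) held TAATTA, beside 9.11% of other intergenic transcripts, and 0 held CCCNNGGG, beside 9.16%. TATAAA on either strand was present in 11 (24.4%), beside 18.4%. The 6 include the Olfr1371 gene piece and the 11 the Olfr45 gene piece. The 45 also include gene and 5′-side transcripts. Among all other listed transcripts, of every class, the shares were 7.19% for TAATTA, 13.4% for CCCNNGGG and 15.7% for TATAAA. The first base lay in soft-masked sequence, the annotated interspersed or simple repeats, in 20 of 45 transcripts (44.4%). The shares were 30.9% of other intergenic and 21.0% of all other listed transcripts. These are descriptions of letters in a window and were not tested.

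The Olfr164 locus on chromosome 16 held 7 transcripts over 126 kb, the largest number at any receptor-named locus. Its 6 plus-strand transcripts had log2 values of 1.66, 3.21, 2.52, 2.61, 3.23 and 1.63 in the authors' deposited table, in order along the chromosome. The minus-strand transcript (chr16:19249506-19276180) had -1.90, and it overlapped the plus-strand transcripts at 2.61 and 3.23, so that the direction differed between strands of the same DNA. It was the only one of the 7 on the strand of Olfr164. The name describes the locus poorly: only the transcript at 1.63 overlapped Olfr164, on the opposite strand, and the others lay 7923 to 115186 bp from it. The locus spans genes of the immunoglobulin lambda light chain, including the constant genes Iglc2 and Iglc4 and the variable genes Iglv2 and Iglv3. The plus-strand transcripts lay opposite Iglc2, Iglc4 and Iglv3, and the lower minus-strand transcript lay over Iglv2 on its own strand. Upstream, 4 more plus-strand intergenic transcripts, named for the histone chaperone gene Hira, had values from 1.65 to 3.00.

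**Figure D3:**
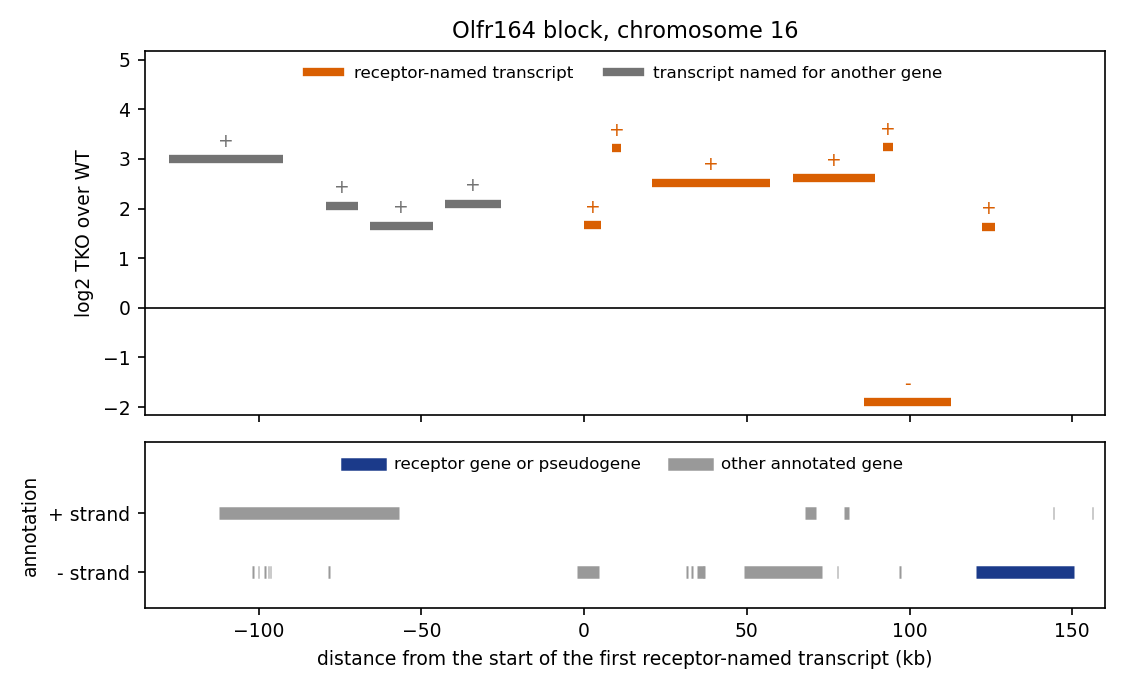
Upper panel, log2 TKO over WT (authors' deposited values) of listed transcripts around Olfr164 against distance in kb from the start of the first receptor-named transcript, with the strand above each bar; lower panel, annotated genes on each strand. The 10 plus-strand transcripts lie between 1.63 and 3.23 and the minus-strand transcript at -1.90.

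The other higher odorant receptor-named transcripts were mostly single. The highest was named for Olfr283 (chr15:98387953-98390468, 4.29), lay 7006 bp from that gene and overlapped no annotated gene. The Olfr1324-named transcript (chrX:50537504-50563932, 3.90) lay 109005 bp from Olfr1324 and ran opposite to Firre, a long non-coding RNA gene with a role in nuclear organisation, so its name says little of its position. The Olfr539-named transcript (3.46) ran opposite to Olfr539 and along the pseudogene Olfr540-ps1, and formed 1 locus with the 2 pieces of Olfr45. The Olfr461-named transcript (2.99) lay 3081 bp from Olfr461 and formed a locus with the 2 pieces of Olfr460. Within 100 kb of that locus the gene transcripts of the bitter taste receptors Tas2r137 and Tas2r108 were higher as well, at 2.30 and 2.94. They abut on the plus strand (chr6:40491238-40493590 and chr6:40493592-40534481). Whether they are pieces of the same assembled RNA was not checked. The Olfr521-named transcript had 2.56 and the Olfr1339-named one 3.45.

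The Olfr1339-named transcript (chr4:118741441-118751851, plus strand) had an RNH peak at its 5′ end in 3 of the 4 RNH libraries, the highest number among receptor-named transcripts with 0 control peaks there. The authors' peak folds there were 4.54 in WT replicate 1, 3.85 in TKO replicate 1 and 4.95 in TKO replicate 2, with 0 peaks in WT replicate 2 and in both controls. A second peak inside the transcript, with a fold of 4.05, was present in TKO replicate 1. Its 5′ window (chr4:118741191-118741490, plus strand), which overlaps all 3 of these 5′ peaks, held TAATTA at 2 places, in capitals. It is shown with the 5′ window of the highest receptor-named transcript of all, named for Vmn1r188 (chr13:22079182-22079481, minus strand), which held none of the motifs searched.
Olfr1339-named RNA start: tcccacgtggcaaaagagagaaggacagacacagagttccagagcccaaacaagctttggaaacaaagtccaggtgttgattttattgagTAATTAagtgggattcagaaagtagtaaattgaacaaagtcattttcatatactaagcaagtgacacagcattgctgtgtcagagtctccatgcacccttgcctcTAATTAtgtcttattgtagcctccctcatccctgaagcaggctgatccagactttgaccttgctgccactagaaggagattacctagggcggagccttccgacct
Vmn1r188-named RNA start: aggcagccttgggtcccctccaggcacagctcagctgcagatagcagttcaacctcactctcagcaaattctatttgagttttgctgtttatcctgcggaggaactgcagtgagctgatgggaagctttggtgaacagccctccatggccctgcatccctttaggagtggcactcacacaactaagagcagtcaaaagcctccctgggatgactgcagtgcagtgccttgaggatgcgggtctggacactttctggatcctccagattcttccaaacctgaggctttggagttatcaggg

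Of the 9 lower transcripts 8 were named for odorant receptors, and all 9 were intergenic. The lowest were 3 consecutive plus-strand transcripts 10648 to 49354 bp upstream of Olfr161 on chromosome 16, with log2 values of -3.31, -3.05 and -2.89 in the authors' deposited table, or 9.93-fold, 8.30-fold and 7.43-fold lower in TKO. All 3 were on the strand of Olfr161 and overlapped no annotated gene. The Olfr143-named transcript (chr9:38260519-38264571) had -2.80 and began past the end of that gene, 3969 bp away on the same strand. The Olfr419-named transcript had -1.55 and ran opposite to Olfr419. The Olfr836-named transcript had -1.29. The Olfr338-named one had -1.21 and ran over the pseudogene Olfr336-ps1, and a nearby transcript named for Ptgs1, the cyclooxygenase gene, had -1.43.

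The Vmn1r188 to Vmn1r191 locus on chromosome 13 held the 5 highest receptor-named transcripts, all intergenic by class. Their log2 values in the authors' deposited table were 6.99 (chr13:22075413-22079231, minus strand), 6.20 (chr13:22084693-22085860), 6.18 (chr13:22092406-22105630), 5.83 (chr13:22127517-22147995) and 6.24 (chr13:22175741-22178391), the last 4 on the plus strand. As folds they ran from 57.1 to 127. The values differed little among themselves over a span of 103 kb. The transcripts at 6.20 and 6.18 lay over Vmn1r188 on its own strand. The transcript at 6.18 also ran opposite to Vmn1r189, the one at 6.24 opposite to Vmn1r191, the one at 5.83 opposite to the pseudogenes Vmn1r-ps97 and Vmn1r190-ps, and the one at 6.99 opposite to Vmn1r-ps93. The run of high values extended past the receptor names: a plus-strand transcript named for the histone gene Hist1h2bj, 7483 bp from the first of the 5, had 6.14 and covered the pseudogene Vmn1r-ps92. The next, named for Hist1h2ah, had 1.27. The locus lies inside a cluster of 83 receptor genes and pseudogenes that is interleaved with histone genes, 1.37 Mb from the deleted gene Hist1h1d. The only RNH peak in these 5 transcripts was inside the one at 5.83, in TKO replicate 2, with a fold of 4.12. Repeated 75-base windows, those found more than once in the genome and so hard to place from a 75-base read, made up 0% to 23.8% of each.

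**Figure D4:**
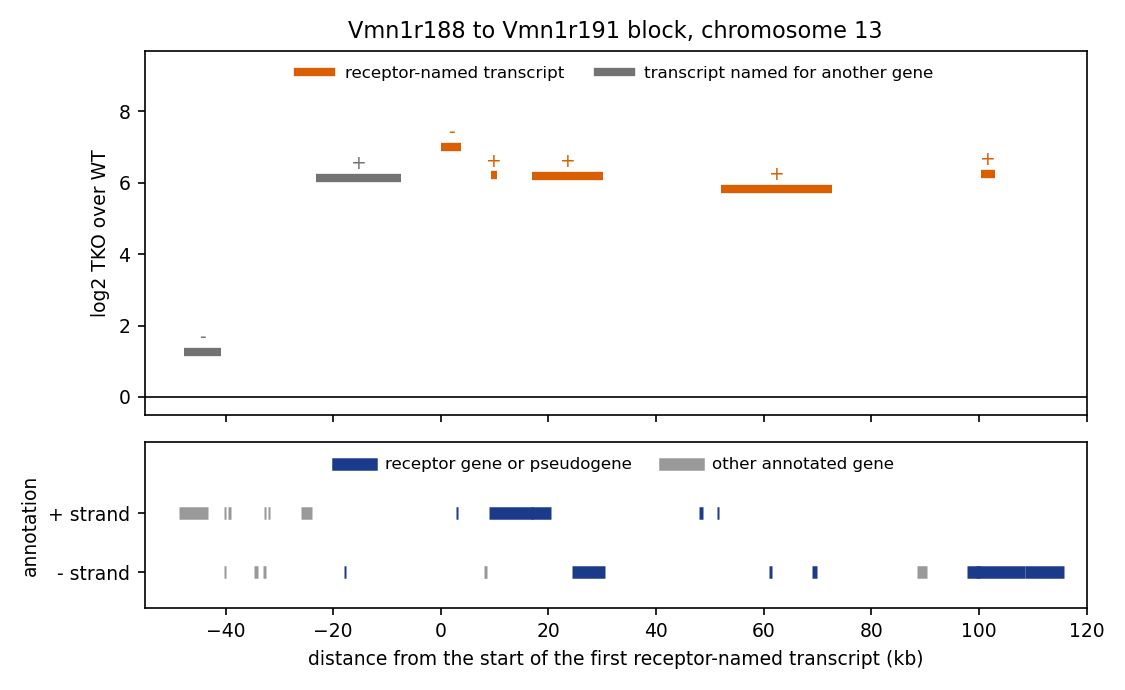
Upper panel, log2 TKO over WT (authors' deposited values) of listed transcripts around Vmn1r188 to Vmn1r191 against distance in kb from the start of the first receptor-named transcript, with the strand above each bar; lower panel, annotated genes on each strand. The 5 receptor-named transcripts and the neighbour named for Hist1h2bj lie between 5.83 and 6.99, and the neighbour named for Hist1h2ah at 1.27.

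The other Vmn1r transcripts were less far from 0. The 4 named for Vmn1r238 had log2 values of 3.18, 3.17, 2.62 and 2.52, lay 41846 to 116382 bp from that gene and stood at the assembled start of chromosome 18. MapR peaks lay there in all 6 libraries, controls included: the highest folds were 7.06 and 7.16 in WT, 7.39 and 7.29 in TKO, and 9.01 and 6.90 in the MNase-only controls, so that the peaks were present without RNase H, with a higher fold than both RNH libraries in WT and a lower one in TKO. One of the 4, at 2.52, had 50.0% of its 75-base windows repeated, and their part in the result was not tested. The Vmn1r2-named transcript (1.99) was 303 bp wide and lay 67.8 kb from the assembled start of chromosome 4, and the Vmn1r3-named one had 1.60. The single lower Vmn1r transcript ran opposite to Vmn1r47 (chr6:90013805-90027511, -1.65), and 34.4% of its windows were repeated.

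All 6 Vmn2r transcripts were higher, each at its own locus. Besides Vmn2r1 they were intergenic: those named for Vmn2r113 (3.05), Vmn2r90 (2.92), Vmn2r112 (2.14), Vmn2r79 (1.21) and Vmn2r31 (1.18). The Vmn2r90-named transcript overlapped the 3′ end of Vmn2r90 on the opposite strand, and the Vmn2r113-named one ran opposite to the pseudogene Vmn2r-ps128. Near the latter, intergenic transcripts named for the zinc finger gene Zfp945 had 1.60 and 2.38. The Vmn2r31-named transcript had 51.0% repeated windows, the only one over 50%, so part of its reads cannot be told apart from those of near-identical copies.

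Most of the intergenic transcripts were not RNA of the receptor gene whose name they carry. Of the 37, 8 overlapped the named gene, 2 on its strand and 6 on the opposite one. The other 29 lay 3081 to 116382 bp away, with a median of 25645 bp. The strand was that of the named gene for 16 and the opposite for 21, and 16 overlapped no annotated gene at all. A receptor gene or pseudogene of any name lay under 12 of the 37. Of all 45 transcripts 33 (73.3%) were on the plus strand, against 51.0% of the table.

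The receptor-named transcripts lay in AT-rich, repeat-rich DNA. Their median GC content was 39.5%, beside 45.1% for all listed transcripts, and soft-masked repeats made up a median of 37.5%, beside 22.8% overall and 26.8% for other intergenic transcripts. The ratio of observed to expected CpG was 0.119, beside 0.220. GGACT, a preferred sequence of m6A methylation, occurred on the transcribed strand 0.752 times per kb, beside 0.886. Their median width was 7409 bp, against 10904 bp for all listed transcripts. Among intergenic transcripts alone they were not shorter, with a median of 8156 bp against 7612 bp for other names. A listed transcript within 100 kb was present for 31 of the 45, and 115 of these 128 neighbour pairs (89.8%) had the same direction, beside 91.6% among all listed transcripts. With neighbours of other names, 37 of 38 pairs (97.4%) had the same direction. These pairs count many neighbours more than once, and the share for pairs of different names was not computed over all listed transcripts.

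Set against the whole repertoire, few receptor loci were listed at all. GENCODE M21 holds 1988 receptor genes and pseudogenes of these names (1407 Olfr, 327 Vmn1r, 238 Vmn2r and 16 Taar). Of these, 13 (0.654%) overlapped a listed transcript on their own strand, against 6.83% of all 55413 annotated genes. Of the 13, 11 (0.553% of the 1988) overlapped a higher transcript, against 3.54% of all genes, and 2 a lower one, the pseudogenes Olfr335-ps and Olfr336-ps1. On either strand the count was 27 (1.36%), against 10.6% of all genes. Of these 27, 20 lay under a receptor-named transcript and 7 only under a transcript of another name. The 7 were Vmn1r-ps92 (under the Hist1h2bj-named transcript, 6.14), Olfr56 (opposite Tgtp1, an interferon-induced GTPase gene, 4.66), Olfr1398-ps1 (Foxo1, 3.29), Olfr719-ps (Hfm1, 1.49), Olfr718-ps1 (Rnf216, 1.43), Olfr1564 (Gm4461, 1.20) and Olfr335-ps (Ptgs1, -1.43). How many receptor genes had RNA on chromatin in both genotypes at similar levels cannot be read from a table of differences.

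Receptor genes at most 500 kb apart formed 64 clusters of at least 3 genes, with 1944 genes in 61.3 Mb, or 2.25% of chromosomes 1 to 19, X and Y. They held 68 listed transcripts of any name (1.19% of the table), of which 50 (73.5%) were higher in TKO, with a median log2 value of 1.73. Of the 64 clusters 35 held no listed transcript and 16 held a receptor-named one. At least 2 receptor-named transcripts lay in 4 clusters. These were the chromosome 13 cluster of 83 genes with 5, a chromosome 7 cluster of 25 genes with 3 (around Olfr45 and Olfr539), a chromosome 17 cluster of 15 genes with 2 (Vmn2r112 and Vmn2r113) and a chromosome 9 cluster of 123 genes with 2 (Olfr143 at -2.80 and Olfr920 at 1.89, in opposite directions).

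MapR peaks in the clusters took a share of each library's peaks that was close to the clusters' share of the chromosomes. It was 2.19% (490 peaks) and 2.34% (155) in the WT libraries, and 2.37% (602) and 1.67% (108) in the TKO libraries. The MNase-only controls had 1.94% (11 peaks) in WT and 2.06% (12) in TKO. The genotypes overlapped, since the TKO libraries held both the highest and the lowest share. The mean log2 TKO over WT was -0.19 (two-sided exact permutation test of 2 against 2 libraries, p = 1.00, where the smallest possible p is 0.333). The difference was 0.11 between the replicates 1 and -0.49 between the replicates 2, and 0.06 without TKO replicate 2. The number of libraries allows no test to pass 0.05. No label says whether libraries came from separate cultures, so the spread may be technical.

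Receptor genes themselves met peaks far less often than other genes did. A peak overlapped 32 (1.61%) and 18 (0.905%) of the 1988 in the WT libraries and 49 (2.46%) and 11 (0.553%) in the TKO libraries, against 24.4%, 7.07%, 27.1% and 7.40% of all annotated genes. The controls had peaks on 2 and 3 receptor genes, against 0.464% and 0.457% of all genes. Again the TKO libraries held the highest and the lowest number. The mean log2 TKO over WT was -0.03 (exact permutation test, p = 1.00), with 0.60 between the replicates 1 and -0.66 between the replicates 2. Without 1 library it ranged from -1.06 (without TKO replicate 1) to 1.00 (without TKO replicate 2), and it was 0.37 without WT replicate 1. The lists of replicate 1 were the longer ones, with 22336 peaks in WT and 25392 in TKO against 6612 and 6458 for replicate 2, and the number of receptor genes met was higher in the longer list of each genotype.

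**Figure D5:**
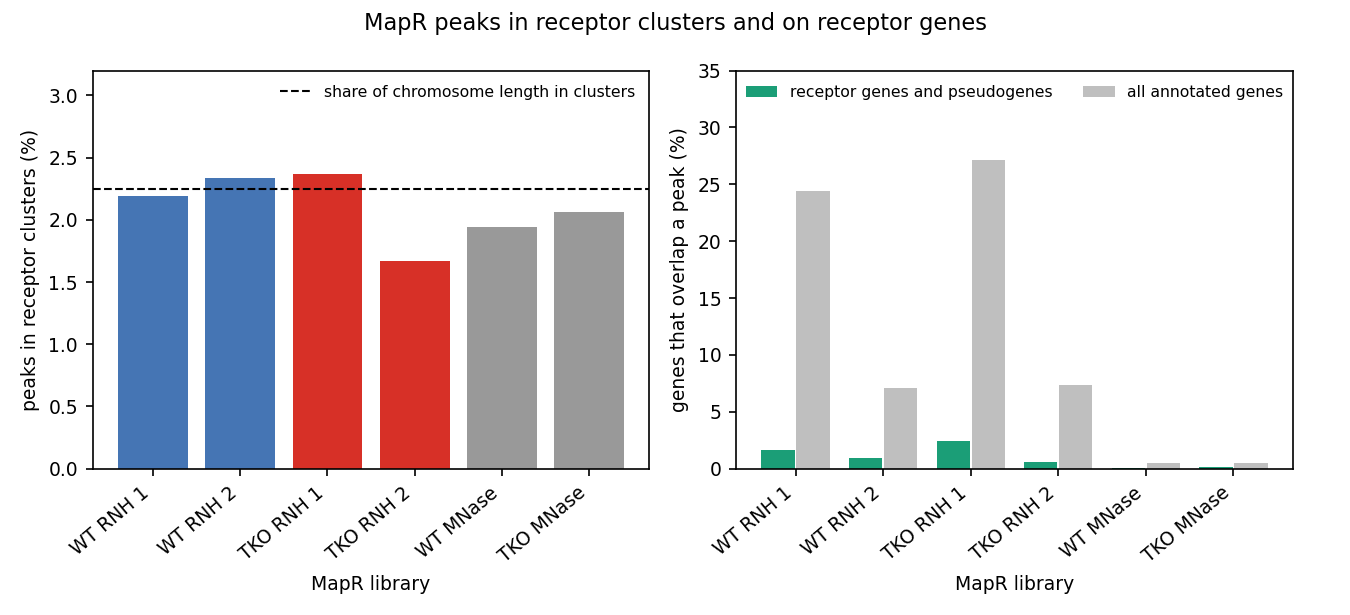
Left, percentage of each library's MapR peaks that lie in receptor clusters, with the clusters' share of chromosome length (2.25%) as a dashed line; right, percentage of receptor genes (green) and of all annotated genes (grey) that overlap a peak. RNH 1 and 2 are the replicates made with the RNase H fusion and MNase the controls. The shares lie between 1.67% and 2.37% with no separation of WT (blue) from TKO (red), and at most 2.46% of receptor genes overlap a peak in any library.

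At least 1 RNH library had a peak on 64 receptor genes, 30 Olfr (2.13% of the family), 4 Vmn1r (1.22%), 30 Vmn2r (12.6%) and 0 Taar. Vmn2r genes were also the longest, with a median of 18627 bp against 5506 bp for Olfr and 1219 bp for Vmn1r. Peaks in at least 3 of the 4 RNH libraries were found on 11 genes and in all 4 on Olfr806, Olfr56, Vmn2r3 and Vmn2r55. The Olfr806 peaks had folds of 7.61 and 10.8 in WT and 6.49 and 12.3 in TKO, and 14.7 and 12.1 in the WT and TKO MNase-only controls, so that 3 of the 4 RNH folds lay below the control of their genotype. Vmn2r3 had 5.18 and 4.07 in WT and 4.94 and 4.28 in TKO, and Vmn2r55 had 3.89 and 3.88 in WT and 3.77 and 5.31 in TKO, with 0 control peaks on either. The genotypes overlapped on both genes. The span of Olfr56 (6.59 and 5.08 in WT, 6.02 and 4.38 in TKO) contains other genes, among them Tgtp1 and Ifi47. In 3 libraries each, peaks lay on Vmn2r26, Vmn2r57, Vmn2r62, Olfr54, Olfr18 and the pseudogenes Vmn2r-ps133 and Vmn2r-ps89, with lowest folds from 3.37 to 5.11. The spans of Vmn2r26, Vmn2r57, Olfr18 and Vmn2r-ps89 also hold other annotated genes, Cers4 in the case of Vmn2r-ps89. Whether the peaks lie on those genes was not checked.

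Of the 45 receptor-named transcripts, 9 (20.0%) overlapped a peak of any RNH library, against 45.7% of all listed transcripts. By library the numbers were 4 (8.89%) and 4 in WT, where 34.1% and 9.91% of all listed transcripts overlapped a peak. In TKO they were 6 (13.3%) and 5 (11.1%), where 35.6% and 10.7% did, and in the controls 2 and 3, where 0.786% and 0.909% did. Most of the 45 were intergenic, and of other intergenic transcripts 23.4% and 7.37% did in WT and 22.9% and 9.11% in TKO. Against these, the receptor-named share was lower in replicate 1 and higher in replicate 2 of both genotypes. The control peaks were those at the start of chromosome 18. Besides the peaks at Olfr1339, Vmn1r189 and Vmn1r238, peaks lay at the 5′ ends of the transcripts named for Olfr338 (folds of 3.92 in WT replicate 1 and 5.73 in TKO replicate 2), Vmn1r2 (3.30 in WT replicate 2 and 3.14 in TKO replicate 1), Vmn2r112 (3.73, TKO replicate 1) and Olfr1371 (3.01, TKO replicate 1). The last of these lay at the outer 5′ end of the RNA, 10281 bp upstream of the gene's RefSeq start. WT replicate 2 also had a peak within 1 kb of that end. The divergent 5′-side transcript of Skp1a, the gene of a ubiquitin ligase subunit, began 124 bp away with a log2 value of 2.03, so the peak cannot be assigned to either RNA. The transcripts named for Vmn2r90 (WT replicate 1) and Vmn1r3 (WT replicate 2 and TKO replicate 1) had a peak within 1 kb of the 5′ end but outside the transcript. Of the 45, only the Vmn1r238-named transcripts at 3.18 and 2.62 had peaks in all 4 RNH libraries, and both also had peaks in the controls.

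Genes that olfactory and vomeronasal neurons use alongside these receptors were described in the same way. Of a list of 46 genes (transduction, receptor chaperones, transcription factors and other chemosensory genes), 7 (15.2%) had a listed gene transcript, beside 8.91% of all 21938 protein-coding genes. Of the 7, 1 was higher and 6 were lower, where 45.0% of all listed gene transcripts were higher. The higher one was Gap43, a growth cone protein of immature neurons, with 2 transcripts at log2 values of 2.03 and 1.75. The lower ones were Gng13, a G protein gamma subunit (-2.48), Pde1c, the phosphodiesterase of olfactory cilia (-2.16), Car2, a carbonic anhydrase (-2.07), the transcription factors Ebf1 (-1.84) and Ebf4 (-1.08), and Ric8b, a chaperone of the olfactory G protein (2.00-fold lower). Ebf1 also had a 5′-side transcript at -2.66, Pde4a a bidirectional one at 2.70, and Cnga3 lent its name to 2 intergenic ones, at -1.41 and 1.20. The other 37 genes had none, among them Omp, Adcy3, Gnal, Cnga2 and Trpc2, the defining genes of mature olfactory and vomeronasal neurons. A gene that is not listed may be silent, may differ less than 2.00-fold or may have missed another criterion of the authors that is not given.

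Cell identity could be checked only in part, since the files hold no RNA level per sample and a peak at a start is no measure of expression. Of 10 embryonic stem cell markers, 8 had an RNH peak within 1 kb of the gene's start in at least 1 library, beside 51.6% of all protein-coding genes, 0 had one in all 4, and 0 had a listed gene transcript. Of 6 olfactory sensory neuron markers, 1 had such a peak (Adcy3) and 1 a listed transcript (Gap43), and of 3 vomeronasal markers 2 had a peak (Gnao1 and Gnai2) and 0 a listed transcript. Of 4 neuroectoderm markers 2 had a peak and 2 a listed gene transcript, Pax6 at 1.52 and Tubb3 at 2.77. The part of such cells in the receptor-named transcripts was not tested.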

How the data were processed

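The submitters' processing notes name the build mm10 with TopHat2 and DESeq2, with BWA and MACS2, and with SAMtools and bedtools, without versions or order. The authors' deposited cheRNA table holds a log2 fold change per listed transcript from stranded, ribosome-depleted libraries. Per the labels' protocols a luciferase RNA was spiked in; the sources do not say whether it entered the fold changes, and a different scaling would shift every value together. The sign of the deposited values was turned, so that positive means higher in TKO. The authors' peak lists, 1 per MapR library, give a fold enrichment (a ratio), −log10 p, −log10 q and a score per peak. They hold no reads, so depth is unknown.

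Names and classes were read from the transcript names. Positions were set against GENCODE M21, and sequences came from RefSeq (GRCm38.p6) and its promoter table, of which 500 sequences were compared with the genome and 500 were identical. Overlaps were at least 1 bp. Repeated sequence was measured from 75-base windows, taken every 10 bases in receptor-named transcripts and every 50 bases in others. Python 3.11.15 with pandas 2.3.3, numpy 2.4.6 and scipy 1.17.1 was used, and the permutation and overlap code was tested on simulated data.

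The members and lists were chosen with earlier results of these data known. Named transcripts were the 10 highest, the 10 lowest, the 2 of largest absolute value in each class and family, and every name with 2 or more; the other receptor-named transcripts were added after their values were seen. Of receptor genes with RNH peaks, the rule named at most 10 of those in at least 3 libraries, and Olfr18 was added. The TATAAA search and the soft-masked 5′ ends were also added then. RNA polymerase II ChIP, MNase, TT-seq and ChrMeRIP samples were not analysed here.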

Additional observations from a re-analysis of the deposited data

How the results depend on the processing

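Of the 44 alternative values computed, 3 turned the direction, all of them for MapR peaks with 1 library left out. The share of receptor-named transcripts higher in TKO (80.0%) ran from 73.5% to 87.5% under 11 of 12 alternatives and was 100% without intergenic transcripts. The median log2 value (2.62) was 3.31 without intergenic transcripts, 3.21 over transcripts of any name that overlap a receptor gene, and 1.73 over transcripts of any name within receptor clusters, the last added after the data had been seen. So were the settings by locus, without either large block and without repeated sequence, under which the median ran from 2.14 to 2.82. The share of receptor genes under a listed transcript on their strand (0.654%) was 1.36% on either strand and 0.402% where at least 50% of the gene had to be covered. Leaving out 1 RNH library gave log2 values from -0.44 to 0.06 for the share of peaks in clusters and from -1.06 to 1.00 for receptor genes with a peak, so neither direction is stable. The share in clusters was -0.51 where genes at most 100 kb apart were joined, and the genes with a peak came to -0.38 at a −log10 q of at least 5. With the replicate number as a block both values stayed at -0.19 and -0.03 (exact sign-flip test of 2 pairs, p = 1.00, where the smallest possible p is 0.5); the labels do not say that the numbers pair libraries.

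The cheRNA values carry no replicate error, depth or p, and cover only transcripts past the authors' threshold. Counts over the 45 transcripts take neighbours at the 25 loci more than once. Reads of near-identical receptor copies cannot be told apart at the 75 bases sequenced.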
